A study of Mus musculus with 88 samples.

Results

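The data described here follow wild-type (WT) mouse embryonic stem cells (ESCs) across the second step of a directed differentiation toward endoderm, from the libraries labelled anterior primitive streak (APS) at 24 h to those labelled definitive endoderm (DE) at 48 h. The members are the 2 libraries at 24 h and the 2 libraries at 48 h of WT cells in the table of the endoderm series, chosen by their labels alone, which makes 4 of the 88 samples of the series. The study asked how the Polycomb repressive complex 2 (PRC2) subunits MTF2 and JARID2 affect the exit from pluripotency, and it sequenced RNA of single cells and in bulk. In the directed experiments, WT, Mtf2 null and Jarid2 null cells were sampled undifferentiated and at 5, 24 and 48 h, with 2 libraries for each genotype and time, in one series toward endoderm and in another toward mesoderm. The WT cells are labelled E14, an ESC line of 129/Ola background with no engineered allele, and were kept in serum with leukemia inhibitory factor (LIF) before they were differentiated as a monolayer. For the 24 h libraries they received Activin A, which activates the Nodal/Activin receptors, CHIR99021, a GSK3 inhibitor that activates Wnt signalling, and FGF2. For the 48 h libraries Activin A was kept, CHIR99021 and FGF2 were no longer listed, and DM3189, an inhibitor of BMP receptors, was added. The labels give this harvest as 48 h, whereas the methods describe a second step of a further 48 h, so the time between the groups cannot be told apart as 24 h or 48 h. The study lists the duplicates of the directed differentiation as technical, and p-values then measure only the spread between duplicate libraries. That spread was estimated over all 24 libraries of the endoderm table, or all 48 of both tables. It does not come from the 4 WT libraries alone. The methods also list a background-matched WT line for each null line, whereas the labels give the strain as E14 in every genotype, so genotype and parental line cannot be told apart in a comparison between genotypes. Whether a line is 1 clone is not given in the sources used here.

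Gastrulating epiblast cells that receive Nodal and Wnt signals enter the primitive streak, where they switch on transcription factors such as Brachyury (T) and Eomes, and those exposed to sustained Nodal signalling go on to form definitive endoderm, which is marked by Sox17, Foxa2, Gata4, Gata6 and the chemokine receptor Cxcr4. Before that, cells leave the naive state kept by LIF, a network that includes Klf4, Tbx3, Esrrb and Nanog, and pass through a formative state resembling the epiblast after implantation, marked by Fgf5, Otx2, Pou3f1 and Dnmt3b. Pou5f1 and Sox2 are shared by both states.

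The 4 libraries held between 10087319 and 14776127 counts, within the range of 9889592 to 16372804 over the 24 libraries of the table. Replicates differed by more than counting noise, with a chi-square per degree of freedom of 5.06 between the libraries at 24 h and 9.79 between those at 48 h. Gm26917, a noncoding RNA gene, took between 11.5% and 14.6% of the counts of each, and mitochondrial genes took between 1.34% and 1.84%. Levels are given in CPM, a gene's count relative to the TMM-scaled total of its library, in the order of replicate 1 and replicate 2. In bulk RNA a lower level can mean fewer cells of a type or less RNA per cell, and these cannot be told apart. The targeted genes checked the labels of the other genotypes. Mtf2 had 275 and 307 CPM at 24 h in WT cells and 34.6 and 36.8 CPM in Mtf2 null cells. Jarid2 stood at 339 and 334 CPM at 24 h in WT cells, and the libraries labelled Jarid2 null had 288 and 283 CPM at 24 h and 347 and 377 CPM at 48 h, so its RNA did not check that label.

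Of 19261 genes tested, 747 (3.88%) were called different between 48 h and 24 h. A call needed more than a 2-fold change in edgeR's quasi-likelihood test with a p, adjusted over all tested genes by the Benjamini-Hochberg method, of less than 0.001. Of the tested genes, 424 (2.20%) were higher at 48 h and 323 (1.68%) were lower, and the median log2 fold change of all tested genes was 0.00. The number of higher genes fell to 263 when replicate 1 at 24 h was left out and to 268 when replicate 2 at 24 h was left out. The number of lower genes fell to 206 without replicate 2 at 48 h. In all 747 called genes the 48 h libraries did not overlap the 24 h libraries, which also held for 56.0% of the tested genes. Among the higher genes 146 changed by more than 4-fold and 22 by more than 16-fold, and among the lower genes 109 and 20 did.

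**Figure D1:**
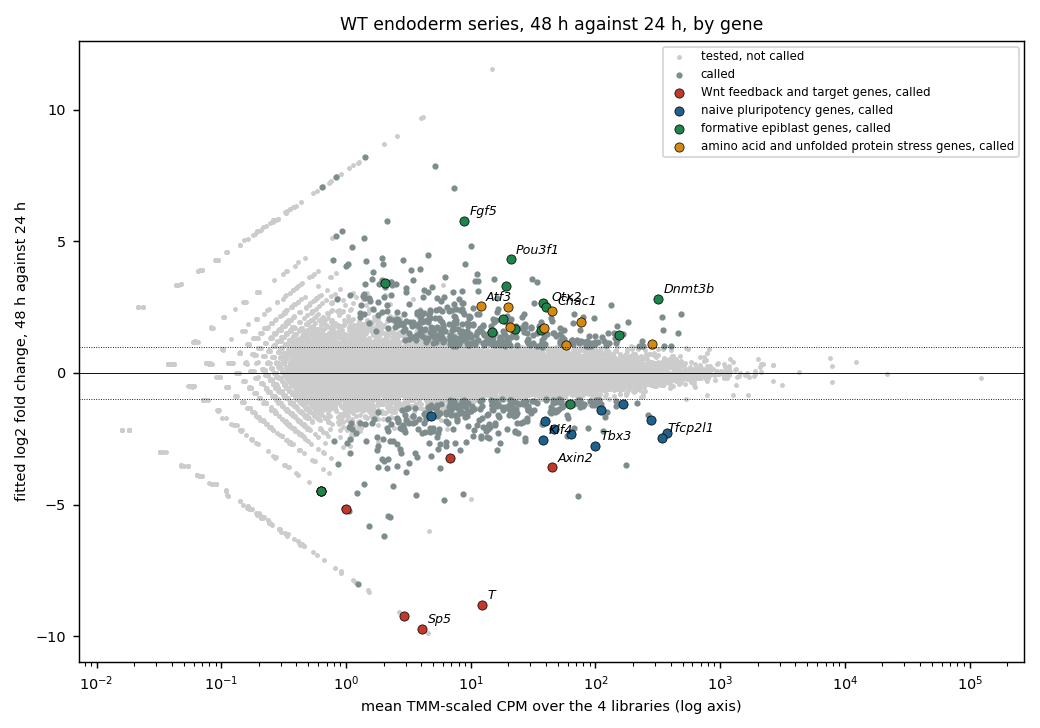
Fitted log2 fold change at 48 h against 24 h in WT cells of the endoderm series (vertical axis) against the mean CPM over the 4 libraries (horizontal log axis), 1 point per tested gene, with called genes in dark grey and called members of 4 gene lists in colour; dotted lines mark a 2-fold change. Called Wnt targets and naive genes lie below 0, called stress genes lie above 0, and 12 of the 14 called formative genes lie above 0; the slanted rows of points are genes with few or no counts at either time, whose fitted values depend on the prior count.

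The labelled cell type was first checked against its markers, and the 48 h libraries did not carry them. Sox17, a transcription factor required for definitive endoderm, had 0.363 and 0.447 CPM at 24 h and 0.173 and 0.377 CPM at 48 h. Foxa2, the forkhead factor of endoderm and of the anterior streak, had 0.0727 and 0 CPM at 24 h and 0.346 and 0 CPM at 48 h, at or below the level of 3 counts (0.205 CPM at 24 h and 0.271 CPM at 48 h on average) in 3 of 4 libraries. Cer1, a secreted antagonist made by early endoderm, had no count in any of the 4 libraries. The summed level of 9 definitive endoderm markers was 29.9 and 30.5 CPM at 24 h and 32.3 and 31.6 CPM at 48 h, with Prdm1, Gata4 and Hhex as its largest parts. These libraries are therefore called the 48 h libraries of the endoderm series below, and no other cell type name is given to them. The 7 naive markers summed to 1992 and 1621 CPM in undifferentiated cells, 1790.0 and 1795 CPM at 24 h and 541.6 and 535.4 CPM at 48 h. The 4 formative markers summed to 109.4 and 85.6 CPM, to 91.8 and 94.2 CPM and to 776.8 and 590.2 CPM at these times. Both sums at 24 h lay between those of the undifferentiated libraries. The 8 anterior streak markers summed to 41.9 and 34.8 CPM in undifferentiated cells and 100.6 and 101.2 CPM at 24 h. The 24 h libraries are likewise named only by their time.

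Among the endoderm regulators, Gata4 had 6.83 and 6.77 CPM at 24 h and 9.01 and 6.03 CPM at 48 h (log2 fold change 0.15, SE 0.19, adjusted p = 0.672), and the libraries at both times overlapped. Its relative Gata6 had 0.654 and 1.21 CPM at 24 h and 0.693 and 1.51 CPM at 48 h, and Hhex, a homeobox gene of the anterior endoderm, had 5.89 and 6.01 CPM at 24 h and 4.76 and 4.14 CPM at 48 h (adjusted p = 0.816 and 0.207). Cxcr4 had 1.96 and 0.767 CPM at 24 h and 0.26 and 0.471 CPM at 48 h and did not pass the test (adjusted p = 0.0637). Eomes, the T-box factor upstream of the endoderm program, stood at 9.88 and 11.2 CPM at 24 h and 11.3 and 12.1 CPM at 48 h, which did not differ beyond the test (adjusted p = 0.639). Of the 27 genes listed as definitive endoderm regulators and markers, 23 were tested, 4 were higher and 2 were lower, with a median log2 fold change of 0.15, or 0.02 when genes without counts in a group were set to their bound. The 4 that rose were Otx2, Krt19, Cldn6 and Epcam, of which Otx2 is also a formative gene and the other three are general epithelial genes. Kit, a receptor tyrosine kinase also expressed by ESCs, fell from 31.9 and 27.9 CPM to 7.1 and 2.26 CPM (log2 fold change -2.65, SE 0.26, adjusted p = 2.28e-07), and Trh, the thyrotropin-releasing hormone gene, fell from 395 and 403 CPM to 164 and 98.3 CPM (-1.60, SE 0.18, adjusted p = 9.18e-07).

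**Figure D2:**
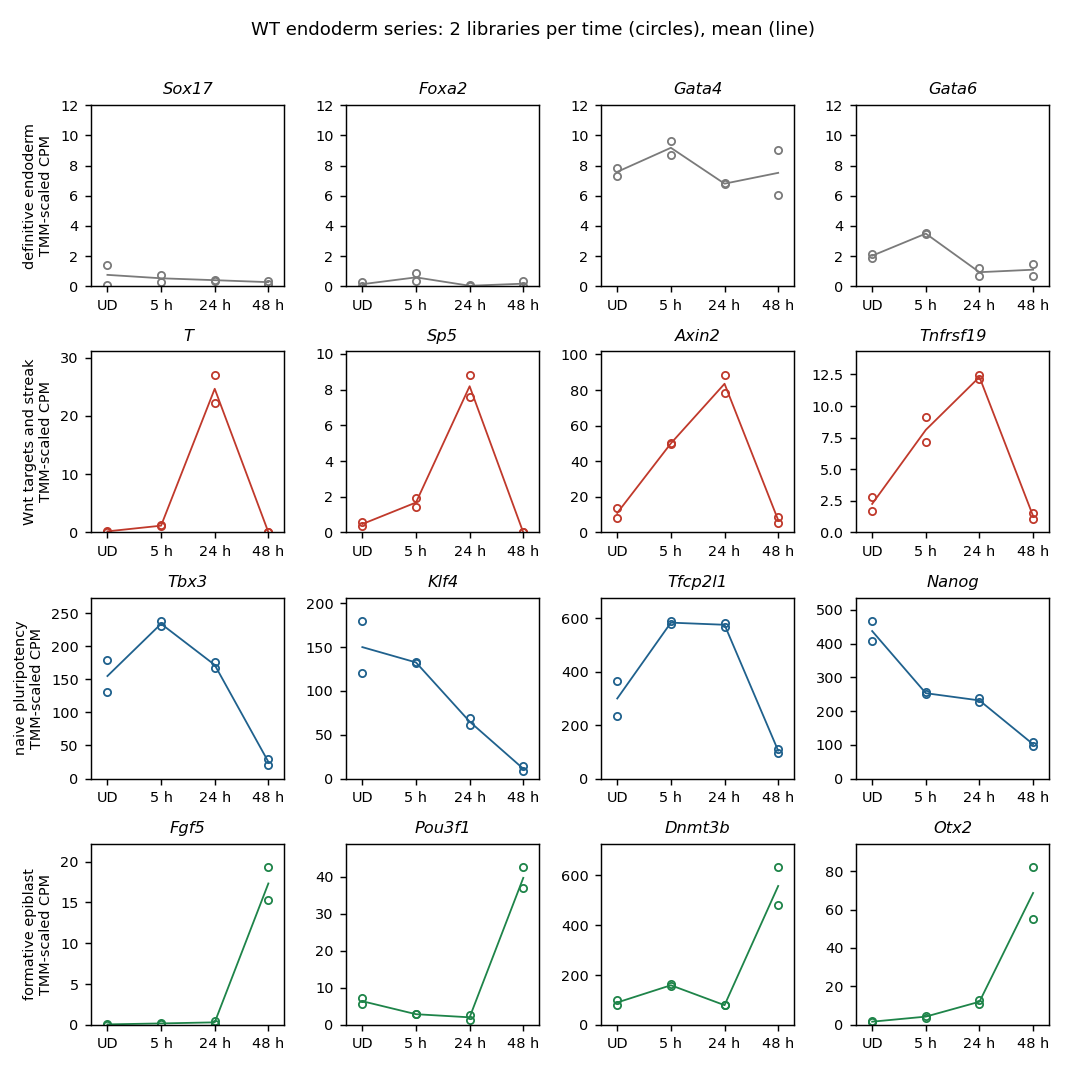
TMM-scaled CPM (vertical axes, from 0) of 16 genes in the WT endoderm series for undifferentiated cells (UD) and at 5 h, 24 h and 48 h (horizontal axes), with a circle for each library and a line through the means. Sox17, Foxa2 and Gata6 stay at or under 3.55 CPM at every time, T, Sp5, Axin2 and Tnfrsf19 peak at 24 h, the 4 naive genes are lowest at 48 h, and the 4 formative genes are highest at 48 h.

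The 3 genes that fell furthest, Sp5, Cdx1 and T, were streak and Wnt target genes that stood higher at 24 h than at the other times sampled. T, the streak and mesoderm factor Brachyury (ENSMUSG00000062327, chromosome 17 from 8434423 to 8442496), had 27 and 22.3 CPM at 24 h and 0 and 0.0942 CPM at 48 h, with 721 counts against 1. Its ratio of 24 h to 48 h was 543, with a 95% counting interval of 97.2 to 21486. Sp5, a zinc finger gene and direct Wnt target, had 7.56 and 8.82 CPM at 24 h and no count at 48 h, and was at least 30.2-fold lower against a floor of 3 counts per library. Cdx1, a caudal homeobox gene, had 6.76 and 4.92 CPM at 24 h and no count at 48 h, and was at least 21.5-fold lower against the same floor. Both libraries at 48 h were at or near 0 for these 3 genes and far below both 24 h libraries. Axin2, a feedback inhibitor of Wnt signalling (ENSMUSG00000000142, chromosome 11 from 108920349 to 108950783), had 13.8 and 8.06 CPM in undifferentiated cells, 49.6 and 50.4 CPM at 5 h, 88.4 and 78.6 CPM at 24 h and 8.58 and 5.27 CPM at 48 h. From 24 h to 48 h it fell 12-fold (log2 fold change -3.58, SE 0.20, adjusted p = 1.1e-10), to levels that overlapped those of the undifferentiated libraries. Tnfrsf19, a receptor gene induced by Wnt signals, had 12.1 and 12.5 CPM at 24 h and 1.56 and 1.04 CPM at 48 h (-3.23, SE 0.25, adjusted p = 8.52e-09). Cdx2, Wnt3a and Wnt8a were low at 24 h, with at most 2.04 CPM, and had 1 count each at 48 h. The ratio of 24 h to 48 h was 43.7 for Cdx2 (95% counting interval 7.54 to 1755) and 27.1 for both Wnt3a and Wnt8a (4.57 to 1101). The calls of Cdx2 and Wnt8a did not hold in DESeq2 or with some libraries left out (adjusted p = 0.00126 to 0.00644 for Cdx2 over the 4 libraries and 0.00103 to 0.00556 for Wnt8a over 3).

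In all, 8 of 25 tested Wnt feedback and target genes were lower and 0 were higher, with a median log2 fold change of -0.51. Not every Wnt target followed. Lef1, which encodes a Wnt effector and is also listed as a formative gene, had 5.6 and 5.49 CPM at 24 h and 12.7 and 9.7 CPM at 48 h, a difference that did not pass the test (adjusted p = 0.0606). Of the primitive streak regulators, 7 of 20 tested were lower and 0 were higher (median -0.62), and 5 of these 7 are the Wnt targets T, Sp5, Cdx1, Cdx2 and Wnt3a. The remaining pair were Wnt5b, a Wnt ligand, and Snai1, a repressor of E-cadherin. The call of Snai1 was lost in DESeq2 (adjusted p = 0.00708) and in edgeR with only the 8 WT libraries (adjusted p = 0.0108). It was also lost with each of the 4 libraries left out in turn (log2 fold change -1.97 to -1.85). Mixl1, a homeobox gene of the streak, had 0.727 and 0.767 CPM at 24 h and 0.433 and 0.188 CPM at 48 h and Fgf8 had 0.363 and 0.319 CPM at 24 h and 0.52 and 0.848 CPM at 48 h, neither of which passed the test. Gsc and Lhx1, which mark the anterior streak, had at most 0.282 CPM in any library. The 8 markers of the anterior streak summed to 100.6 and 101.2 CPM at 24 h and to 48.1 and 50.8 CPM at 48 h.

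Promoter windows of the 8 called Wnt targets were read because these genes fell together. The windows hold 250 bases before and 50 bases after an annotated start, in RefSeq's annotation of GRCm38.p6, and 6 of the 8 genes matched an entry, with 7 windows. The 7 letters CTTTGAT (a TCF/LEF motif, searched on both strands) stood in 2 of the 7 windows, of Sp5 and Tnfrsf19, against 3.73% of 32851 windows of all genes. The variant CTTTGAA, searched in the same way, stood in the window of T, against 5.14% of all windows. The motifs and windows were chosen after the values were seen, and a match is a description of these letters and not a binding site. The windows of Sp5 (chr2:70474673-70474972, plus strand, match from base -104) and T (chr17:8434173-8434472, plus strand, match from base -235 on the other strand) are shown because these fell furthest among the genes with a match. Matching letters are in capitals and bases are counted from the annotated start.
Sp5: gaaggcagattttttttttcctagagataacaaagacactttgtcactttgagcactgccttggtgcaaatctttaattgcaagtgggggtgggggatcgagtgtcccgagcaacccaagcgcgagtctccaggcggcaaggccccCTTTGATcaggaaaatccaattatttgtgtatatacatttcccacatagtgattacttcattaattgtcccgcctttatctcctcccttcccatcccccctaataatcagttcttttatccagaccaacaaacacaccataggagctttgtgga
T: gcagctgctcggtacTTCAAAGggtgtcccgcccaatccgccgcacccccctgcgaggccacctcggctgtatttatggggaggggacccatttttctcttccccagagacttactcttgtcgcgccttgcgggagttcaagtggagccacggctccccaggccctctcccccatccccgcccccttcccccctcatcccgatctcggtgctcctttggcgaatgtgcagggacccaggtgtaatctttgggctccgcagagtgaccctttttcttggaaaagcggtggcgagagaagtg

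The signalling pathways that the media act on were examined next. CHIR99021, FGF2, DM3189 and the time in culture all changed together between the 24 h and 48 h libraries. Their effects cannot be told apart in any of the gene lists. Of 23 tested genes of the Nodal and Activin pathway, 1 was higher and 1 was lower (median log2 fold change -0.20), while Activin A was present at both times. Lefty2, a feedback antagonist of Nodal, had 452 and 496 CPM at 24 h and 363 and 273 CPM at 48 h (-0.58, SE 0.19, adjusted p = 0.0365), and Lefty1 had 119 and 125 CPM at 24 h and 70.5 and 38.3 CPM at 48 h (-1.16, SE 0.23, adjusted p = 0.00107). Both were lower in each 48 h library than in each 24 h library, but neither passed the threshold. Such a lack of overlap held for 56.0% of the tested genes. Nodal itself had 62.4 and 66.4 CPM at 24 h and 35.4 and 37.1 CPM at 48 h, a difference under 2-fold (-0.83, SE 0.12, adjusted p = 2.04e-05). Its co-receptor Tdgf1 had 148 and 157 CPM at 24 h and 269.7 and 229 CPM at 48 h (0.71, SE 0.13, adjusted p = 0.00059). Pcsk6, a protease that processes Nodal, had a log2 fold change of -1.04, which ended under 2-fold without replicate 2 at 24 h (-0.99) or at 48 h (-0.97).

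BMP receptors were inhibited in the second step. Of 23 tested BMP targets and ligands, 5 were lower and 1 was higher, with a median log2 fold change of -0.31. Id3, an inhibitor of helix-loop-helix factors and a direct BMP target, had 10.9 and 11.1 CPM at 24 h and 1.56 and 1.6 CPM at 48 h and fell 6.91-fold (-2.79, SE 0.21, adjusted p = 4.55e-09). Id4 fell from 8.43 and 9.77 CPM to 1.47 and 2.26 CPM, and the ligand gene Bmp4 fell from 48.3 and 44.1 CPM to 11.5 and 5.09 CPM (adjusted p = 4.65e-06 and 6.79e-08). The other two that fell were Tbx3, a naive gene given below, and the ligand gene Bmp7. Id1 was lower at 48 h, with 10.8 and 9.46 CPM at 24 h and 5.2 and 1.7 CPM at 48 h, but missed the threshold (adjusted p = 0.00114). Id2 went the other way, with 2.18 and 3 CPM at 24 h and 8.66 and 4.33 CPM at 48 h (1.32, SE 0.25, adjusted p = 0.000562). That call was lost without replicate 1 at 24 h (adjusted p = 0.0151), replicate 2 at 24 h (0.00248) or replicate 1 at 48 h (0.0476).

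The FGF and ERK feedback genes split. Of 27 tested, 5 were higher and 2 were lower (median log2 fold change 0.27), after FGF2 was no longer listed in the medium. Spry4, an inhibitor of receptor tyrosine kinase signalling, fell from 157 and 156 CPM to 64.9 and 59.5 CPM (-1.33, SE 0.13, adjusted p = 2.69e-07). Etv4, an ETS factor downstream of FGF, fell from 89 and 84.1 CPM to 34 and 43.4 CPM (-1.16, SE 0.13, adjusted p = 1.67e-06), with a log2 fold change of -0.99 without replicate 1 at 48 h. Dusp6, a phosphatase of ERK, had 85.2 and 84.8 CPM at 24 h and 97.8 and 102 CPM at 48 h and did not pass the test (adjusted p = 0.248). Those that rose included the ligand genes Fgf5 and Fgf15 and the receptor gene Fgfr2, which went from 1.16 and 1.41 CPM to 6.84 and 5.37 CPM (2.24, SE 0.23, adjusted p = 4.79e-07). Egr1, an immediate early gene, had 5.45 and 3.71 CPM at 24 h and 12.7 and 19.6 CPM at 48 h, and its call was lost without replicate 1 at 24 h (adjusted p = 0.00364), replicate 2 at 24 h (0.021) or replicate 2 at 48 h (0.0186). The fifth, Spred3, encodes an inhibitor of ERK signalling. Of 10 tested secreted antagonists of anterior endoderm, 0 were higher and 1 was lower (median -0.27). It was Sfrp1, a soluble Wnt antagonist, with 65.5 and 65.3 CPM at 24 h and 26.9 and 18.9 CPM at 48 h (-1.51, SE 0.16, adjusted p = 8.83e-07).

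The naive network fell between 24 h and 48 h. Of 24 tested naive pluripotency genes, 11 were lower and 0 were higher, with a median log2 fold change of -0.92. Tbx3, a T-box factor of the naive network and a BMP target, had 177 and 167 CPM at 24 h and 20.4 and 30.1 CPM at 48 h and fell 6.8-fold (-2.77, SE 0.19, adjusted p = 1.63e-09). Klf4, a Krüppel-like factor maintained by LIF, had 68.9 and 61.3 CPM at 24 h and 8.49 and 14 CPM at 48 h (-2.54, SE 0.20, adjusted p = 6.95e-09). Tfcp2l1, a transcription factor of the same network, had 364 and 234 CPM in undifferentiated cells, 588 and 577 CPM at 5 h, 567 and 582 CPM at 24 h and 96.2 and 112 CPM at 48 h. It therefore stood higher at 24 h than in either undifferentiated library and fell 5.52-fold after that (-2.46, SE 0.17, adjusted p = 1.2e-09). Klf2 fell from 111 and 103 CPM to 24.5 and 18.3 CPM, and Esrrb, an orphan nuclear receptor, from 433 and 424 CPM to 128 and 121 CPM (adjusted p = 1.39e-08 and 1.07e-07). Nanog fell 2.27-fold, from 226 and 238 CPM to 108 and 95.8 CPM (-1.19, SE 0.12, adjusted p = 2.25e-07). The other called members were Tdh, Nr5a2, Tcl1, Prdm14 and Tet2. The call of Prdm14 was lost without replicate 1 at 24 h (adjusted p = 0.0015), replicate 1 at 48 h (0.00132) or replicate 2 at 48 h (0.00252).

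The core pluripotency genes did not pass the threshold, with 0 of 14 called in edgeR (median log2 fold change 0.18). Pou5f1 had 600.3 and 591 CPM at 24 h and 698 and 657 CPM at 48 h (0.19, SE 0.12, adjusted p = 0.332). Sox2, which is shared with neural progenitors, had 221 and 227 CPM at 24 h and 133 and 117 CPM at 48 h, lower in both 48 h libraries but by less than 2-fold (-0.84, SE 0.13, adjusted p = 4.77e-05).

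Formative genes rose in the same libraries, and a larger share of this list rose than of any other of the 29 lists. Of 22 tested, 12 were higher and 2 were lower, with a median log2 fold change of 1.5. Fgf5, a ligand of the epiblast after implantation (ENSMUSG00000029337, chromosome 5 from 98254184 to 98277030), had 0.0947 and 0 CPM in undifferentiated cells, 0.0772 and 0.251 CPM at 5 h, 0.145 and 0.447 CPM at 24 h and 19.3 and 15.4 CPM at 48 h. It rose 55.1-fold from 24 h to 48 h (5.79, SE 0.38, adjusted p = 9.85e-10). Pou3f1, a POU factor of the epiblast and neural progenitors, had 2.62 and 1.41 CPM at 24 h and 42.5 and 36.8 CPM at 48 h and rose 19.9-fold (4.32, SE 0.22, adjusted p = 3.57e-11). Otx2, a homeobox factor of the epiblast and later of the anterior embryo, had 10.8 and 13.2 CPM at 24 h and 82 and 55.3 CPM at 48 h (2.51, SE 0.18, adjusted p = 2.55e-09). Fgf15 had 3.92 and 3.19 CPM at 24 h and 46.5 and 23 CPM at 48 h (3.29, SE 0.29, adjusted p = 5.73e-08), with its 48 h libraries apart from each other but both above the 24 h libraries. Sox3, a relative of Sox2, had 0.436 and 0.256 CPM at 24 h and 4.94 and 2.54 CPM at 48 h, and its call was lost without replicate 2 at 24 h (adjusted p = 0.00217). The other called members that rose were Zic2, Zic5, Sall2, Grhl2 and Krt18, with Dnmt3a and Dnmt3b. The 2 that fell were Etv4 and Wnt8a, an FGF target and a Wnt ligand.

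Among the DNA methylation enzymes, 2 of 9 tested were higher and 1 was lower, with a median of 0.18. Dnmt3b, a de novo DNA methyltransferase, had 78.3 and 79.2 CPM at 24 h and 633 and 483 CPM at 48 h and rose 7.09-fold (2.83, SE 0.16, adjusted p = 1.17e-10). Dnmt3a rose from 82.5 and 83.2 CPM to 247 and 206 CPM (1.45, SE 0.12, adjusted p = 1.63e-08), and Tet2, which oxidises methylated cytosine, fell from 167 and 153 CPM to 59.4 and 61.8 CPM (-1.40, SE 0.11, adjusted p = 5.39e-09). Of 12 tested PRC2 genes, 2 were lower and 0 were higher (median -0.25). Epop, an accessory subunit of PRC2, fell from 197 and 170.0 CPM to 69 and 61.6 CPM (-1.49, SE 0.14, adjusted p = 8.35e-08). Phf1 fell from 8.43 and 7.67 CPM to 3.64 and 3.39 CPM, a call lost without replicate 1 at 24 h (adjusted p = 0.00291) or either 48 h library (0.00191 and 0.00366). Eed, a core subunit, had 121 and 133 CPM at 24 h and 101 and 123 CPM at 48 h. Jarid2 had 339 and 334 CPM at 24 h and 327 and 307 CPM at 48 h. Mtf2 had 275 and 307 CPM at 24 h and 218 and 238 CPM at 48 h. None of the 3 passed the threshold (adjusted p = 0.285, 0.671 and 0.0194).

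**Figure D3:**
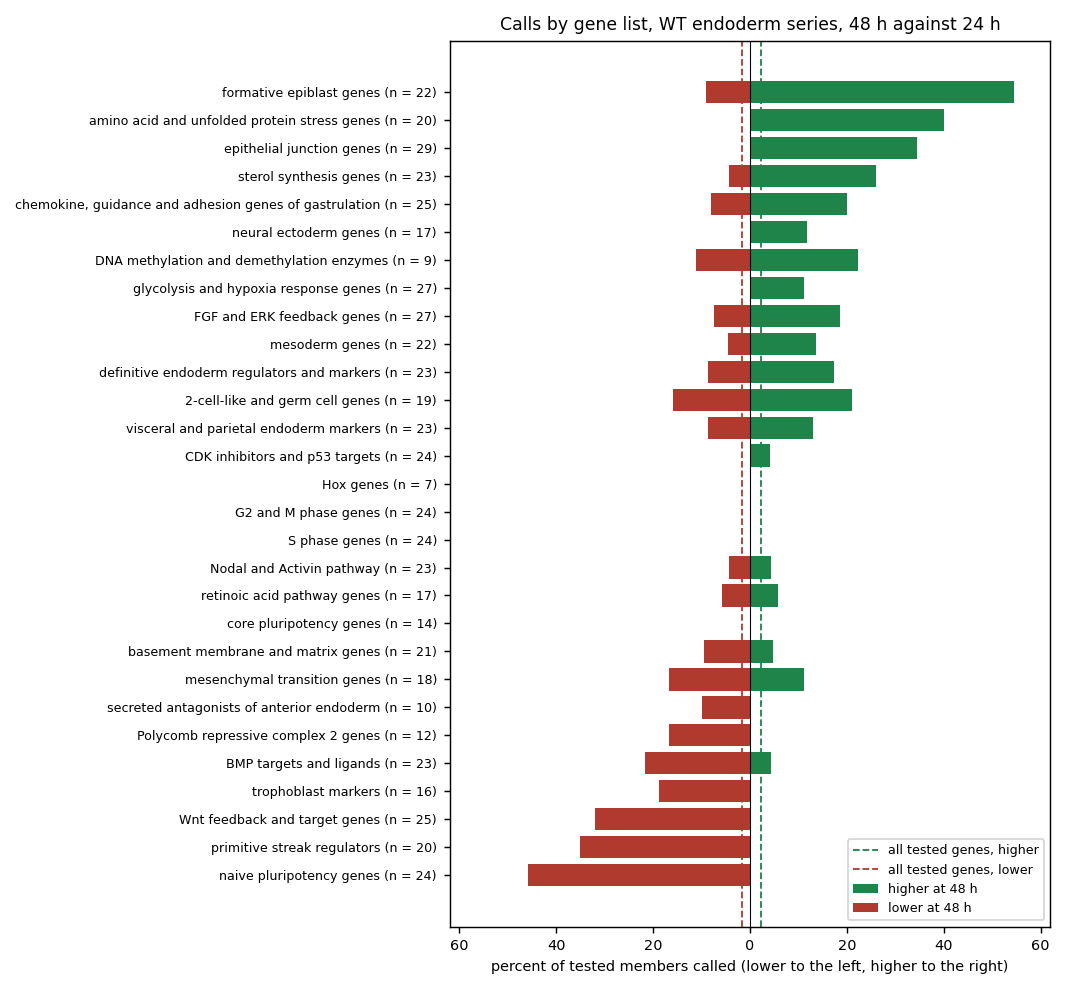
Percent of the tested members of each of 29 gene lists that were called higher (green, to the right) or lower (red, to the left) at 48 h than at 24 h in WT cells of the endoderm series, with n the number tested and dashed lines for all tested genes (2.20% higher and 1.68% lower). Formative, stress and epithelial lists reach furthest to the right (54.5%, 40% and 34.5%), and naive, streak and Wnt lists furthest to the left (45.8%, 35.0% and 32.0%); lists share some genes.

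Epithelial genes were higher at 48 h. Of 29 tested epithelial junction genes, 10 were higher and 0 were lower, with a median log2 fold change of 0.83. Esrp1, a splicing factor of epithelial cells (ENSMUSG00000040728, chromosome 4 from 11331933 to 11386783), had 6.61 and 4.79 CPM at 24 h and 52.7 and 71.5 CPM at 48 h and rose 10.9-fold (3.45, SE 0.19, adjusted p = 8.83e-11). Cldn7, a tight junction protein gene, had 1.89 and 1.6 CPM at 24 h and 13.9 and 16.7 CPM at 48 h (3.13, SE 0.23, adjusted p = 2.61e-09), and Rab25, a small GTPase of epithelial trafficking, went from 0.218 and 0.383 CPM to 3.72 and 3.48 CPM (3.52, SE 0.41, adjusted p = 2.42e-06). Cldn6 rose from 16.3 and 12.2 CPM to 57.4 and 35.8 CPM and Krt19, a keratin gene, from 1.38 and 1.92 CPM to 7.45 and 10.2 CPM (adjusted p = 4.34e-07 and 1.29e-06). Epcam had 66.5 and 61.3 CPM at 24 h and 136 and 134 CPM at 48 h (1.08, SE 0.10, adjusted p = 9.17e-08). Cdh1, which encodes E-cadherin, had 269.7 and 263 CPM at 24 h and 569 and 523 CPM at 48 h (1.03, SE 0.13, adjusted p = 4.13e-06), and ended under 2-fold without replicate 1 at 48 h (log2 fold change 0.98). The other called members were Marveld3, Krt18 and Crb3.

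Of 18 tested mesenchymal transition genes, 2 were higher and 3 were lower (median log2 fold change 0.11). Vim, which encodes vimentin, fell from 73.7 and 79.2 CPM to 32.3 and 30.5 CPM (-1.28, SE 0.15, adjusted p = 2.59e-06), and Zeb1, a repressor of E-cadherin, fell from 23.8 and 27 CPM to 11 and 9.89 CPM (-1.28, SE 0.14, adjusted p = 1.1e-06). Snai1 was the other lower member, with 1.67 and 1.79 CPM at 24 h and 0.433 and 0.471 CPM at 48 h and the lost calls given above. Cdh2, which encodes N-cadherin, had 6.25 and 5.43 CPM at 24 h and 4.33 and 6.31 CPM at 48 h and was not called (adjusted p = 0.756). Tagln, an actin-binding protein gene, rose 28.2-fold, from 0.872 and 0.511 CPM to 20.4 and 18.6 CPM (4.82, SE 0.35, adjusted p = 2.55e-09). Itga5, a fibronectin receptor subunit, had a log2 fold change of 1.04, which ended under 2-fold without replicate 2 at 24 h (0.91) or at 48 h (0.96).

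Of 21 tested basement membrane and matrix genes, 1 was higher and 2 were lower (median -0.10). Lama1, a laminin chain gene, fell from 78.8 and 74.8 CPM to 35.5 and 28.9 CPM (-1.25, SE 0.15, adjusted p = 2.52e-06), and Nid1, which links laminin to collagen, from 102 and 97 CPM to 47.8 and 43.7 CPM (-1.12, SE 0.15, adjusted p = 1.14e-05). Lamb1 had a log2 fold change of 1.01, and its call was lost without replicate 1 at 24 h (adjusted p = 0.00102), without replicate 2 at 24 h (0.00183) or without replicate 1 at 48 h (log2 fold change 0.89). Of 25 tested chemokine, guidance and adhesion genes, 5 were higher and 2 were lower (median -0.26). Efnb2, an ephrin ligand, rose from 5.38 and 8.69 CPM to 34.8 and 29.6 CPM (2.18, SE 0.19, adjusted p = 3.63e-08). Podxl, a sialomucin of apical membranes, had 15.6 and 15.8 CPM at 24 h and 56.6 and 59.3 CPM at 48 h, and Cdh3, which encodes P-cadherin, had 38 and 35.5 CPM at 24 h and 132 and 96.5 CPM at 48 h (adjusted p = 2.32e-08 and 2.19e-08). Sema6a and Pcdh1 were the other two that rose. Epha4, an Eph receptor, fell from 40.6 and 41 CPM to 18.1 and 16.2 CPM (-1.25, SE 0.15, adjusted p = 2.52e-06). Ephb2, the other that fell, lost its call without replicate 1 at 24 h (adjusted p = 0.00148) or replicate 2 at 48 h (0.00333).

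Stress genes were higher at 48 h. Of 20 tested amino acid and unfolded protein stress genes, 8 were higher and 0 were lower, with a median log2 fold change of 0.96. Chac1, a glutathione-degrading enzyme induced by ATF4, had 13.7 and 15.5 CPM at 24 h and 72.9 and 77.4 CPM at 48 h and rose 5.14-fold (2.36, SE 0.23, adjusted p = 2.27e-07). Trib3, a pseudokinase of the same response, had 28.8 and 34.4 CPM at 24 h and 98.5 and 144 CPM at 48 h (1.94, SE 0.20, adjusted p = 3.6e-07). Atf3, a stress-induced transcription factor, had 3.34 and 3.64 CPM at 24 h and 14.6 and 26.5 CPM at 48 h (2.55, SE 0.28, adjusted p = 9.14e-07), and Slc7a11, the cystine transporter, had 5.01 and 6.71 CPM at 24 h and 21.6 and 46.3 CPM at 48 h (2.52, SE 0.31, adjusted p = 4.66e-06). In each of these 4 genes the second 48 h library was the higher one. Both 48 h libraries lay above both 24 h libraries, as they did in every called gene that rose. Atf4, the factor that drives the response and is regulated largely in translation, had 175 and 189 CPM at 24 h and 381 and 399.7 CPM at 48 h (1.10, SE 0.13, adjusted p = 3.14e-06). The other called members were Ddit3, Herpud1 and Atf5.

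Promoter windows of these 8 genes were read in the same RefSeq annotation of GRCm38.p6, in which all 8 matched, with 9 windows. The letters TGATGNAA (a C/EBP-ATF motif, searched on both strands) stood in 5 of 9 windows, of Atf3, Chac1, Herpud1, Slc7a11 and Trib3, against 3.97% of all 32851 windows. This motif too was chosen after the values were seen. The 4 windows shown are those of the 4 genes with the largest changes, with the matching letters in capitals. They are Atf3 (chr1:191183284-191183583, minus strand, match from base -110), Slc7a11 (chr3:50443564-50443863, minus strand, matches from bases -66 and -47), Chac1 (chr2:119350992-119351291, plus strand, match from base -193) and Trib3 (chr2:152344011-152344310, minus strand, match from base 14).
Atf3: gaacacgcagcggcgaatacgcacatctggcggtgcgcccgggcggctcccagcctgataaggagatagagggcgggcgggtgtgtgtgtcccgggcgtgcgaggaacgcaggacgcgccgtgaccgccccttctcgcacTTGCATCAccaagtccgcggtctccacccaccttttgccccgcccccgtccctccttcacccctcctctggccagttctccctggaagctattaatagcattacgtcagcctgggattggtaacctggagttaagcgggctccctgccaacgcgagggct
Slc7a11: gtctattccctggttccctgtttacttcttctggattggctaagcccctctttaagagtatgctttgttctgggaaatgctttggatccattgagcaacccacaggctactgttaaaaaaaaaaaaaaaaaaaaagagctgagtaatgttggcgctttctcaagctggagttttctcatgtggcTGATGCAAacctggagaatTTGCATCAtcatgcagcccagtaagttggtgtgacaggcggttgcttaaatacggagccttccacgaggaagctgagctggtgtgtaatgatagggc
Chac1: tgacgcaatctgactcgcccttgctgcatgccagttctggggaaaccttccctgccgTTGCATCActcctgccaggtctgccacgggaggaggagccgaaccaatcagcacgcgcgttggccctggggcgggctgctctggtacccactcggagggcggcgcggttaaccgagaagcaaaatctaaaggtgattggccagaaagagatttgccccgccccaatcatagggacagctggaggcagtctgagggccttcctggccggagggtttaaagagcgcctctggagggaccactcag
Trib3: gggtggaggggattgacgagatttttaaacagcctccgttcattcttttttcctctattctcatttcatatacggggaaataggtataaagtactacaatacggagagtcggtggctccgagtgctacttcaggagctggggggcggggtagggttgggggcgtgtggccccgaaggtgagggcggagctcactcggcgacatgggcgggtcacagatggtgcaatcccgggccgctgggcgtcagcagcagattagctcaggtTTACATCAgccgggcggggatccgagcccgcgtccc

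Of 23 tested sterol synthesis genes, 6 were higher and 1 was lower (median log2 fold change 0.83). Cyp51 and Msmo1, enzymes of lanosterol and methylsterol demethylation, had 61 and 72.7 CPM at 24 h and 185 and 274 CPM at 48 h and 61.8 and 67.8 CPM at 24 h and 163 and 207 CPM at 48 h respectively (adjusted p = 1.19e-05 and 5.06e-06). Sqle, Fdps and Insig1 also rose, and the call of Insig1 was lost without replicate 1 at 24 h (adjusted p = 0.00507), replicate 2 at 24 h (0.00176) or replicate 2 at 48 h (0.00429). Ebp, the sterol isomerase, fell from 17.2 and 17.1 CPM to 7.62 and 5.65 CPM (-1.36, SE 0.15, adjusted p = 1.07e-06). Of 27 tested glycolysis and hypoxia response genes, 3 were higher and 0 were lower (median 0.40). They were Bnip3, a mitophagy receptor (5.23 and 6.39 CPM at 24 h and 23.9 and 24.9 CPM at 48 h), Ddit4, an inhibitor of mTORC1 (32.6 and 29.4 CPM at 24 h and 119 and 128 CPM at 48 h), and Vegfa, the endothelial growth factor (27.2 and 27.9 CPM at 24 h and 69.6 and 101 CPM at 48 h), with adjusted p = 3.12e-08, 4.44e-08 and 1.16e-07. None of 24 tested S phase genes (median -0.06) and none of 24 tested G2 and M phase genes (median -0.22) was called in edgeR. Of 24 CDK inhibitors and p53 targets, only Cdkn1c was called (median -0.03). This imprinted CDK inhibitor rose from 7.92 and 10.5 CPM to 46.6 and 42.2 CPM (2.26, SE 0.15, adjusted p = 8.6e-10).

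Markers of other lineages were examined next. In each of these lists at most 4 members were called in either direction. As a share of these short lists this often lay above the 2.20% and 1.68% of all tested genes. Of 22 tested mesoderm genes, 3 (13.6%) were higher and 1 was lower (median log2 fold change 0.20). The 8 nascent mesoderm markers summed to 2.91 and 2.68 CPM at 24 h and 1.91 and 1.04 CPM at 48 h, with Msgn1 at 0 in all 4 libraries. Dll1, a Notch ligand, rose from 1.67 and 1.34 CPM to 13.4 and 12.2 CPM (3.09, SE 0.27, adjusted p = 3.63e-08). The call of Wt1 was lost with 3 of the libraries left out in turn, and that of Pdgfra with each of all 4. Dll3 lost its call without replicate 2 at 24 h or replicate 1 at 48 h. In edgeR with only the 8 WT libraries, Wt1, Dll3 and Pdgfra all lost their calls (adjusted p = 0.0018, 0.00163 and 0.00559). Pdgfra also lost its call in DESeq2 (adjusted p = 0.00266). Mesp1, Tbx6 and Hand1, defining mesoderm factors, had at most 0.606 CPM in any library. Of 17 tested neural ectoderm genes, 2 (11.8%) were higher and 0 were lower (median 0.00). Nes, an intermediate filament gene of progenitors, rose 11.9-fold, from 5.16 and 4.41 CPM to 48.4 and 65.3 CPM (3.57, SE 0.21, adjusted p = 2.45e-10). Sox3 was the other. Sox1 had 5.96 and 5.88 CPM at 24 h and 5.98 and 4.71 CPM at 48 h and Pax6 1.09 and 1.09 CPM at 24 h and 1.3 and 1.41 CPM at 48 h (adjusted p = 0.743 and 0.694). The 6 neural markers summed to 7.78 and 7.99 CPM at 24 h and 8.40 and 6.78 CPM at 48 h.

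Of 23 tested visceral and parietal endoderm markers, 3 (13.0%) were higher and 2 (8.70%) were lower (median 0.24). Lrp2, an endocytic receptor, had 128 and 127 CPM at 24 h and 514 and 596 CPM at 48 h (2.12, SE 0.16, adjusted p = 5.62e-09), and Cubn, its partner cubilin, had 2.98 and 3.07 CPM at 24 h and 13.2 and 11 CPM at 48 h (2.00, SE 0.22, adjusted p = 1.23e-06). Dab2, an adaptor that binds these receptors, had 1.82 and 1.92 CPM at 24 h and 5.54 and 3.48 CPM at 48 h, and its call was lost with the replicate number as a block (adjusted p = 0.00101) and without replicate 1 at 24 h (0.0114), replicate 2 at 24 h (0.01) or replicate 1 at 48 h (0.0442). Lama1 and Pdgfra were the lower members, and Afp and Ttr, defining secreted proteins of visceral endoderm, had no count in any of the 4 libraries. The 7 visceral endoderm markers summed to 16.8 and 16.1 CPM at 24 h and 27.8 and 25.0 CPM at 48 h. Of 16 tested trophoblast markers, 0 were higher and 3 (18.8%) were lower (median -0.29), namely Cdx2, Tead4 (34.7 and 35 CPM at 24 h and 13.1 and 9.61 CPM at 48 h, -1.61, SE 0.16, adjusted p = 2e-07) and Tfap2c, whose call was lost without replicate 2 at 24 h (adjusted p = 0.00149) or either 48 h library (0.00135 and 0.00206).

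Of 19 tested genes of 2-cell-like and germ cells, 4 were higher and 3 were lower (median -0.28). Ddx4, an RNA helicase of germ cells, had 10.2 and 9.2 CPM at 24 h and 21.7 and 27.2 CPM at 48 h (1.33, SE 0.16, adjusted p = 2.76e-06), and Mael, a piRNA pathway gene, had 6.98 and 5.56 CPM at 24 h and 16.1 and 20.8 CPM at 48 h (1.56, SE 0.19, adjusted p = 3.05e-06). Sycp3, a synaptonemal complex gene, rose in the same test but not without replicate 1 at 24 h (adjusted p = 0.00102), and Taf7l lost its call with each of the 4 libraries left out (adjusted p = 0.00138 to 0.00717). Tex15 fell from 41.6 and 47 CPM to 12.6 and 12.4 CPM (-1.82, SE 0.19, adjusted p = 4.34e-07), together with Prdm14 and Tfap2c, whose lost calls are given above. The 6 markers of 2-cell-like cells summed to at most 1.82 CPM in any of the 4 libraries. Of 17 tested retinoic acid genes, 1 was higher and 1 was lower (median -0.06). Crabp2, a retinoic acid binding protein gene, had 0.436 and 0.319 CPM at 24 h and 6.41 and 2.07 CPM at 48 h and lost its call without either 24 h library or without replicate 1 at 48 h (adjusted p = 0.00244 to 0.00672), and Rxra lost its call without either 24 h library or without replicate 2 at 48 h (0.00203 to 0.0121). Of 29 Hox genes, 7 passed the filter on low counts and 0 were called in edgeR.

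Among all called genes, those with the largest changes were found by size. Igfbp5, an insulin-like growth factor binding protein gene, had 0.0727 and 0 CPM at 24 h and 13.9 and 6.69 CPM at 48 h, a ratio of 307 (95% counting interval 54.5 to 12161). Car4, a membrane carbonic anhydrase gene (ENSMUSG00000000805, chromosome 11 from 84957786 to 84966044), had 0.145 and 0.0639 CPM at 24 h and 17.5 and 11.8 CPM at 48 h, a ratio of 145 (49.1 to 705). After these came Fgf5, Tagln and Pou3f1, given above, and Cdh10, Thbs1, Zfp467, Slc35d3 and Zfp608, which rose between 13.7 and 19.5-fold. Thbs1, a matricellular glycoprotein gene, had 1.16 and 0.767 CPM at 24 h and 15.2 and 18.6 CPM at 48 h (4.13, SE 0.36, adjusted p = 4.31e-08). Zfp608, a zinc finger gene, had 1.74 and 1.34 CPM at 24 h and 25.4 and 16.8 CPM at 48 h (3.77, SE 0.29, adjusted p = 5.62e-09), and Cdh10, a cadherin gene, had 0.145 and 0.383 CPM at 24 h and 4.5 and 6.4 CPM at 48 h (4.28, SE 0.54, adjusted p = 6.13e-06). The call of Slc35d3 was lost without replicate 1 at 24 h (adjusted p = 0.00355) or replicate 2 at 48 h (0.00118).

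The largest decreases after Sp5, Cdx1 and T were those of Trpm1, Ntn1, Gad1, Kif26b, Halr1, Axin2 and Dnah8. Ntn1, a netrin guidance cue (ENSMUSG00000020902, chromosome 11 from 68209364 to 68400823), fell 25.3-fold, from 134 and 144 CPM to 6.15 and 4.8 CPM (-4.66, SE 0.19, adjusted p = 1.54e-12). Dnah8, an axonemal dynein gene (ENSMUSG00000033826, chromosome 17 from 30624354 to 30877365), had 322 and 322 CPM at 24 h and 31.6 and 25.1 CPM at 48 h, an 11.3-fold decrease (-3.50, SE 0.14, adjusted p = 6.4e-13). Trpm1, a cation channel gene, fell from 12.6 and 11.2 CPM to 0.52 and 0.282 CPM and Gad1, which makes GABA, from 8.28 and 5.75 CPM to 0.0866 and 0.471 CPM (adjusted p = 8.64e-09 and 2.01e-07). Halr1, a noncoding RNA gene beside the HoxA cluster, fell from 11.8 and 9.14 CPM to 1.21 and 0.471 CPM, and Kif26b, a kinesin gene, from 5.96 and 5.3 CPM to 0.433 and 0.377 CPM (adjusted p = 4.45e-09 and 6.19e-07). Both 48 h libraries lay below both 24 h libraries in each of these genes, as the rule that picked them required. The setting of the counting for strand is not given in the sources used here, so reads of genes that overlap others cannot be assigned by strand.

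The same step was then read in Mtf2 null cells, which carry a gene-trap allele of a subunit that helps recruit PRC2 and went through the same media. The difference contrast shares the WT libraries with the comparison above. In Mtf2 null cells 2.94% of the tested genes were higher and 0.903% were lower at 48 h than at 24 h. These 566 higher genes fell to 300 without Mtf2 null replicate 2 at 24 h, and the 174 lower genes to 109 without Mtf2 null replicate 2 at 48 h. The change itself differed from that of WT cells in 519 genes, with 390 (2.02% of those tested) moving further up and 129 (0.670%) further down than in WT cells. Leaving out a library took this number to 293 without Mtf2 null replicate 2 at 24 h, 337 without Mtf2 null replicate 1 at 48 h, 323 and 338 without WT replicate 1 or 2 at 24 h, and 331 without WT replicate 2 at 48 h. By direction it went down to 216 upward without Mtf2 null replicate 2 at 24 h and to 71 downward without WT replicate 1 at 24 h, and the downward number was 82 without Mtf2 null replicate 1 at 24 h.

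Of the endoderm regulators that did not pass the test in WT cells, Gata4, Gata6, Hnf4a, Sox17 and Foxa2 rose in Mtf2 null cells. Hhex, Eomes and Cxcr4 were not called there either (adjusted p = 0.0154, 0.0122 and 0.626). Gata4 had 18.6 and 14.9 CPM at 24 h and 112 and 92.1 CPM at 48 h in Mtf2 null cells, against 6.83 and 6.77 CPM and 9.01 and 6.03 CPM in WT cells (log2 difference of the changes 2.46, SE 0.25, adjusted p = 8.08e-07). Hnf4a, a nuclear receptor of visceral endoderm and liver, went from 1.02 and 1.06 CPM to 19.5 and 15.1 CPM, against 2.18 and 2.36 CPM and 0.433 and 0.753 CPM in WT cells (5.98, SE 0.58, adjusted p = 5.88e-07). Sox17 went from 6.65 and 6.03 CPM to 34.3 and 30.6 CPM and Foxa2 from 3.69 and 1.81 CPM to 19.8 and 15.6 CPM in Mtf2 null cells, but with WT levels near the floor the difference from WT cells did not pass the threshold (adjusted p = 0.0397 and 0.958). Of 23 tested definitive endoderm genes, 14 were higher and 1 was lower in Mtf2 null cells (median log2 fold change 1.44), and the change differed from WT cells upward in 3 and downward in 1. Of 23 tested visceral and parietal endoderm markers, 17 were higher in Mtf2 null cells (median 2.51), and 9 differed from WT cells upward and 0 downward. The 7 visceral endoderm markers summed to 1443 and 1377 CPM in the Mtf2 null libraries at 48 h, of which Cubn alone held 1272 and 1240 CPM. Of the 9 definitive endoderm markers, the sum was 317.5 and 274.8 CPM.

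Some naive and formative genes moved less far in Mtf2 null cells. Of 24 naive genes, 7 differed upward and 0 downward in their change (median difference 0.55). Klf4 had 70.3 and 67 CPM and 48.4 and 44.3 CPM in Mtf2 null cells (1.97, SE 0.26, adjusted p = 2.3e-05), and Tbx3 differed in the same direction (2.45, SE 0.26, adjusted p = 1.35e-06). Of 22 formative genes, 0 differed upward and 3 downward, namely Pou3f1 (-3.34, SE 0.28, adjusted p = 9.14e-08), Dnmt3b (-1.76, SE 0.21, adjusted p = 1.05e-05) and Grhl2. Pou3f1 stood at 11.4 and 12.1 CPM at 24 h in Mtf2 null cells, above the 2.62 and 1.41 CPM of WT cells, and at 20.9 and 25.4 CPM at 48 h, below them. The fall of the Wnt targets was not called different between the genotypes, with 0 of 25 called in edgeR for the difference (median 0.28), and Axin2 went from 51 and 48.7 CPM to 4.64 and 3.28 CPM. Of 29 epithelial genes, 3 differed upward and 4 downward in their change, the latter being Rab25, Esrp1, Cldn7 and Epcam. A downward difference here is one of the change and not of the level. Cldn7 had 23.2 and 22.2 CPM at 24 h and 33.7 and 31.7 CPM at 48 h in Mtf2 null cells, above its WT levels at both times. Of 21 matrix genes, 8 differed upward and 0 downward, with Lama1 at 3.76, SE 0.20, adjusted p = 4.79e-10. Chac1 was the only stress gene of 20 whose change differed, with 20.1 and 20.6 CPM and 26.6 and 30.4 CPM in Mtf2 null cells (-1.88, SE 0.33, adjusted p = 0.000496).

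**Figure D4:**
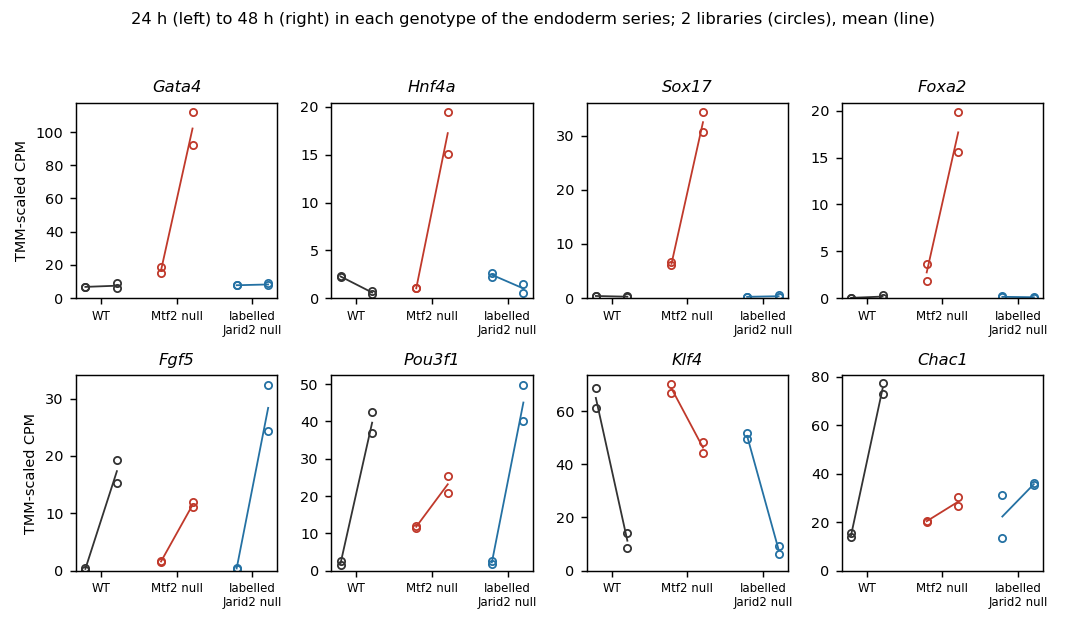
TMM-scaled CPM (vertical axes, from 0) of 8 genes at 24 h (left circles of each pair) and 48 h (right circles) in WT cells, Mtf2 null cells and the libraries labelled Jarid2 null of the endoderm series, with 2 libraries per group and a line through the means. Gata4, Hnf4a, Sox17 and Foxa2 are highest in the Mtf2 null libraries at 48 h, while Fgf5 and Pou3f1 are higher at 48 h than at 24 h in all 3 genotypes.

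In the libraries labelled Jarid2 null, 1.83% of the tested genes were higher and 1.20% were lower at 48 h than at 24 h. These 352 higher genes fell to 210 and 223 without Jarid2 null replicate 1 or 2 at 24 h and to 197 without replicate 2 at 48 h. The 232 lower genes fell to 138 without replicate 2 at 48 h. The change differed from that of WT cells in 0 genes (0%) in edgeR, with 2314 genes at an unadjusted p under 0.05 and 30 called by DESeq2. The number was 58 when WT replicate 1 at 48 h was left out and 6 when Jarid2 null replicate 1 at 24 h was left out. The smallest adjusted p was 0.00127, for Vegfa. Fgf5 had 0.295 and 0.434 CPM at 24 h and 24.3 and 32.4 CPM at 48 h in these libraries, and Klf4 had 51.9 and 49.6 CPM and 9.31 and 6.4 CPM. Of 22 formative genes 14 were higher and 2 were lower, and of 24 naive genes 1 was higher and 11 were lower. Sox17 had 0.222 and 0.29 CPM at 24 h and 0.207 and 0.523 CPM at 48 h. Chac1 had 13.3 and 31.4 CPM and 35.3 and 36.1 CPM, and 0 of 20 stress genes were called in edgeR within these libraries. For these 20 genes the difference from WT cells was not called either (median log2 difference -0.28). At this threshold the step is therefore not shown to differ in them. Chac1 (-1.69, SE 0.32, adjusted p = 0.0197) and Atf3 (-1.75, SE 0.39, adjusted p = 0.0373) rose less than in WT cells but missed the threshold.

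The second step of the mesoderm series of WT cells was read beside that of the endoderm series. Each series had its own media, so medium and series cannot be told apart. In the mesoderm series, cells were kept for 24 h in Activin A, BMP4, CHIR99021 and FGF2. They were then given BMP4 with A-83-01, an inhibitor of Activin and Nodal receptors. The methods also list other doses of Activin A and CHIR99021 for the first step there, so the media already differed before 24 h. The levels of both series given here come from a joint fit of both tables, so those of the endoderm series differ slightly from the ones above. The change from 24 h to 48 h was higher in the endoderm series for 115 of 19601 genes (0.587%) and lower for 142 (0.724%). Of 25 BMP targets and ligands tested in the joint fit, 2 differed upward and 8 downward (median -1.33). Id1 had 10.6 and 9.28 CPM at 24 h and 5.12 and 1.66 CPM at 48 h in the endoderm series and 43.3 and 42.1 CPM and 372 and 358 CPM in the mesoderm series (log2 difference -4.62, SE 0.34, adjusted p = 3.36e-11). Id3 had 10.7 and 10.8 CPM and 1.54 and 1.57 CPM in the endoderm series and 24.4 and 20.3 CPM and 125 and 136 CPM in the mesoderm series (-5.33, SE 0.27, adjusted p = 2.15e-15). Msx2, a homeobox target of BMP signalling, had 0.256 and 0.0924 CPM in the endoderm and 29.3 and 33.6 CPM in the mesoderm libraries at 48 h (-6.55, SE 0.68, adjusted p = 4.41e-08). Id2, which rose in the endoderm series, rose further in the mesoderm series, from 11.3 and 8.96 CPM to 148 and 103 CPM (-2.31, SE 0.32, adjusted p = 9.25e-06).

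Nodal targets went the other way, with 5 of 23 genes of the pathway differing upward and 1 downward. Lefty2 had 443 and 486 CPM and 358 and 267 CPM in the endoderm series and 396 and 374 CPM and 0.0662 and 0.329 CPM in the mesoderm series. Lefty1 had 73.4 and 72.7 CPM and 0.0662 and 0 CPM in the mesoderm series against 117 and 123 CPM and 69.4 and 37.6 CPM in the endoderm series. Their fitted log2 differences of 10.38 and 9.45 rest on almost no counts in the mesoderm libraries at 48 h and depend on the prior count (adjusted p = 2.15e-15 and 4.62e-09). For the Wnt targets 1 of 25 differed, which was Lgr4. Axin2 fell in both series, from 141 and 149 CPM to 18.1 and 17.1 CPM in the mesoderm series, and T had 56.2 and 60.7 CPM at 24 h and 0.0662 and 0 CPM at 48 h there. Of 24 naive genes, 1 differed upward and 7 downward, among them Klf4, with 104 and 96.9 CPM and 58.6 and 66.7 CPM in the mesoderm series (-1.85, SE 0.26, adjusted p = 1.13e-05), and Nanog (-1.14, SE 0.16, adjusted p = 1.13e-05). Of 22 formative genes, 3 differed upward and 0 downward, with Fgf15 at 0.662 and 0.412 CPM and Dnmt3b at 171 and 154 CPM in the mesoderm libraries at 48 h (adjusted p = 5.55e-08 and 1.25e-05). Fgf5 stood at 0.794 and 0.659 CPM there, a difference that did not pass the test (adjusted p = 0.113). The number of genes that differed was 167 and 137 without endoderm replicate 1 or 2 at 24 h, 166 without endoderm replicate 2 at 48 h, 144 and 142 without mesoderm replicate 1 or 2 at 24 h, and 146 without mesoderm replicate 1 at 48 h, against 257 with all libraries. The upward number went down to 57 without endoderm replicate 2 at 24 h or mesoderm replicate 1 at 48 h, and the downward number to 74 without mesoderm replicate 2 at 24 h.

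**Figure D5:**
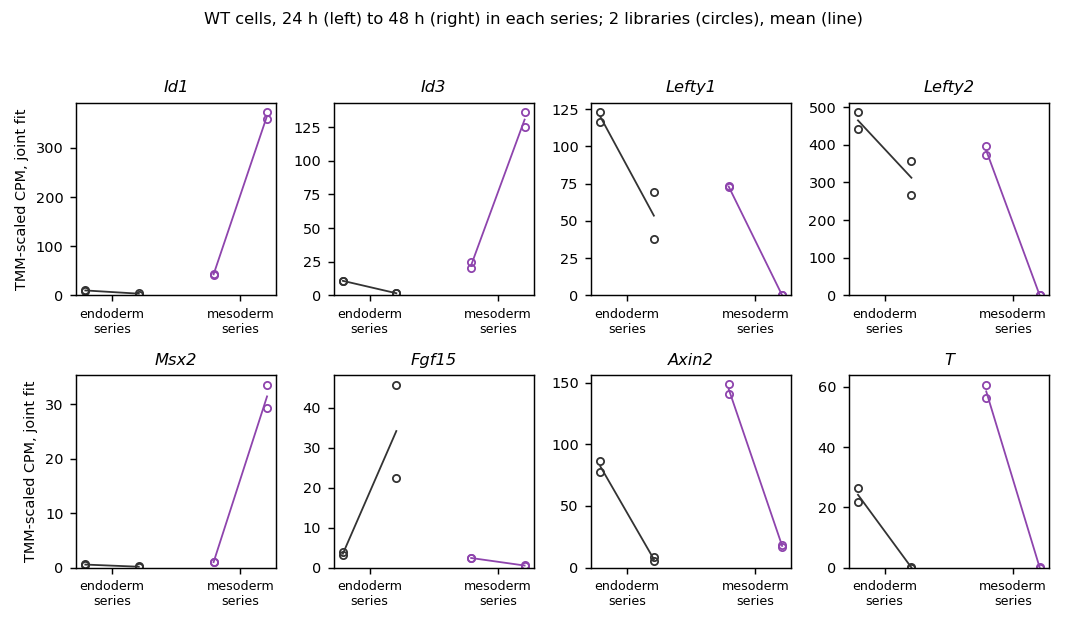
TMM-scaled CPM from the joint fit (vertical axes, from 0) of 8 genes in WT cells at 24 h (left circles of each pair) and 48 h (right circles) in the endoderm and mesoderm series, with 2 libraries per group and a line through the means. Id1 and Id3 are higher at 48 h in the mesoderm series and lower in the endoderm series, Lefty1 and Lefty2 are near 0 at 48 h only in the mesoderm series, and Axin2 and T fall in both.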

How the data were processed

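Total RNA depleted of ribosomal RNA was sequenced from monolayer cultures. Per the methods, the authors aligned reads to GRCm38/mm10 with Bowtie2 and quantified them with Salmon, and they deposited estimated counts per gene without normalization, which are not all whole numbers. Strand settings and the annotation release are not given in the sources used here. Libraries were grouped by their labels. Column names of the Jarid2 null libraries at 48 h in the endoderm table state another hour, and they were matched by library number. The counts were rounded and fitted with edgeR 4.0.16 (R 4.3.3; TMM, filterByExpr at a count of at least 10 and a total of at least 15, quasi-likelihood F test), with 1 mean per genotype and time over all 24 libraries of the endoderm table or all 48 of both tables. Of 54393 genes, 35.4% passed the filter and were tested. Adjusted p-values are Benjamini-Hochberg over all tested genes, standard errors come from the fit, and counting intervals are exact 95% intervals that cover counting error only. Alternatives were DESeq2 1.42.0, its size factors, no filter, fewer libraries, a replicate block, each library left out, and a looser threshold, and the edgeR fit was tested on simulated data.

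Lists and comparisons were chosen with earlier results of these data known. Genes were named by a rule. It took up to 4 called members of each list in each direction and the 10 largest changes in each direction. These 10 needed at least 5 CPM and no overlap between the 24 h and 48 h libraries, and predicted genes were left out. The rule also took the 3 largest of each difference contrast and a fixed set of regulators. Called list members beyond this rule were named after their values were seen. Positions are from GENCODE M21 (GRCm38). A few called list members that enter the counts are not reported here by name.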

Additional observations from a re-analysis of the deposited data

Results flagged for a closer look

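The results here were taken up because the change from 24 h to 48 h differed between groups by a test of the difference itself in edgeR. Between Mtf2 null and WT cells the change differed in 519 genes. Among the named genes the log2 difference was 2.46 for Gata4, 5.98 for Hnf4a, 5.45 for Pga5, a pepsinogen gene that reached 376 and 319 CPM in Mtf2 null and 1.56 and 1.79 CPM in WT libraries at 48 h, 5.54 for the cadherin gene Cdh6, 4.33 for Lrrc15, 2.95 for Kif26b and 1.76 for Id3. It was -4.64 for Mal2, which rose from 0.145 and 0.256 CPM to 3.46 and 4.05 CPM in WT cells and had 6.83 and 8.82 CPM and 6.06 and 5.03 CPM in Mtf2 null cells. It was -4.39 for Car4, -4.05 for Cdh10, -3.34 for Pou3f1 and -1.31 for Tdgf1. The values of Car4 and Cdh10 rest on 3 and 8 counts in the WT libraries at 24 h. That of Mal2 also rests on WT levels near the floor at 24 h. That of Cdh6 rests on 11 counts at 24 h and 6 at 48 h in the WT libraries. At 48 h Car4 had 17.5 and 11.8 CPM in WT and 13.2 and 9.28 CPM in Mtf2 null cells.

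Between the endoderm and mesoderm series of WT cells the change differed in 257 genes. The log2 difference was 10.4 for Lefty2, 9.45 for Lefty1, 6.34 for Kirrel2 (these 3 with almost no counts in the mesoderm libraries at 48 h), 3.91 for Mal2 and 1.09 for Dusp6. It was -6.55 for Msx2, -5.33 for Id3, -5.24 for Lrrc15, -4.62 for Id1, -2.31 for Id2 and -1.14 for Nanog. Lrrc15 had 17.5 and 12.8 CPM at 48 h in the mesoderm series and 0.171 and 0.37 CPM in the endoderm series. The values of Msx2 and Lrrc15 thus rest on endoderm levels near the floor at 48 h.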

How the results depend on the processing

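The number of genes called between 24 h and 48 h in WT cells was 747. It was 691 with DESeq2, 748 with its size factors and 1014 without the filter on low counts. It was 567 with only the 8 WT libraries, 192 with only the 4 libraries compared and 1342 at an adjusted p under 0.05. In the fit of only these 4 libraries, 54 of the 101 called named genes lost their call. With only their own 4 libraries, Mtf2 null cells had 637 called genes against 740. The libraries labelled Jarid2 null had 524 against 584. Fewer libraries estimate the spread there in each genotype, and why the WT number fell furthest was not tested. Leaving out 1 library gave 505 to 703. With the replicate number as a block it was 758, of which 735 were shared, and of the 101 called named genes only Dab2 lost its call. Same-numbered libraries deviated together with a correlation of 0.197 between 24 h and 48 h. Over 66 pairs of groups it ran from -0.242 to 0.306, with 17 pairs over 0.1. The labels do not say whether same-numbered libraries were handled together, and these correlations cannot decide it. Of the 101 called named genes, 46 kept their call in every alternative, 0 changed direction in any, and 75 kept it with each library left out. Genes not called changed sign when a library was left out, over log2 ranges of -0.17 to 0.41 for Gata4, -0.45 to 0.72 for Gata6, -0.43 to 0.12 for Cdh2, -1.06 to 0.020 for Cdh6, -0.32 to 0.017 for Sox1 and -0.93 to 0.86 for Tbx6.

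For Mtf2 null cells the number was 740, 1317 at an adjusted p under 0.05 and 418 to 591 with a library left out. For the libraries labelled Jarid2 null it was 584, 1132 and 335 to 517. The difference between Mtf2 null and WT cells held 519 genes, 939 without the filter, 197 with only the 8 libraries compared, 1249 at an adjusted p under 0.05, and 293 to 535 with a library left out. For the libraries labelled Jarid2 null against WT it was 0, 30 with DESeq2, 155 without the filter, 83 at an adjusted p under 0.05 and 0 to 58 with a library left out. For the endoderm against the mesoderm series it was 257, 493 without the filter, 28 with only the libraries compared, 712 at an adjusted p under 0.05 and 137 to 292 with a library left out. With 3 counts as floor, levels under 0.205 CPM at 24 h and 0.271 CPM at 48 h cannot be told from 0.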
